A study of Mus musculus with 8 samples.

Results

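The receptor tyrosine kinases of the insulin family were followed in islets of control and *Itgb1* mutant mice, together with the mannose 6-phosphate receptor that binds IGF2, the IGF ligands and the insulin receptor substrates. The 9 genes were *Insrr*, *Insr*, *Igf1r*, *Igf2r*, *Igf1*, *Igf2*, *Irs1*, *Irs2* and *Irs4*, taken by symbol from the 24091 genes of the count table. All 9 were among the 15233 genes that passed the filter on low counts, and *Irs4* passed it with 7 to 49 reads per library. *Insrr* was chosen by its log2 fold change between genotypes in earlier results of these data, where it was lower in mutant islets, so its difference between genotypes is given as a description with no test. The other 8 genes were taken because they belong to the family.

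Total RNA was sequenced from islets of mice of 6 weeks on the C57BL/6 background, 4 libraries per genotype. The controls are labelled wild-type and the mutants Ngn3-Cre with *Itgb1* deleted, which the study calls *Itgb1*ΔEndo/ΔEndo. In the mutants, Cre driven by *Ngn3*, a factor of endocrine progenitors, removes floxed *Itgb1*, the gene of integrin β1, from the endocrine lineage, while vessels, fibroblasts and other cells of the islet keep the gene, and this Cre line is also active outside the pancreas. Islets of both genotypes were kept in culture overnight before RNA was extracted, and the labels do not say whether the libraries came from different mice, so a p-value compares the genotypes with the scatter among libraries, whatever its source.

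Controls 2 and 3 and mutant 3 held 62.2 to 67.6 M counts, and the other 5 libraries held 35.1 to 41.0 M counts. These sets are called the larger and the smaller libraries below, and they have no name in the labels. Control 3 and mutant 3 expressed *Xist* and the other 6 libraries expressed Y-linked genes. *Itgb1* itself stood at 315 to 432 counts scaled to a common total (CPM, adjusted between libraries by the TMM method) in controls and at 193 to 266 CPM in mutants. The islet hormones marked every library, with *Ins2* at 14967 CPM or more and *Gcg* at 9894 CPM or more. The summed level of 11 β-cell markers was 32633 and 34293 CPM in the 2 smaller control libraries, 121443 and 174274 CPM in the 2 larger ones, and 31846 to 49629 CPM in mutants, so the larger control libraries stood apart in endocrine RNA. The sum of the acinar cell markers was 3452 and 10418 CPM in controls 2 and 3 and at most 767 CPM in the other 6 libraries. In these bulk samples, fewer cells of a type and less RNA per cell cannot be told apart.

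Insulin and the IGFs bind receptors that are closely related tyrosine kinases. The insulin receptor (*Insr*) and the IGF1 receptor (*Igf1r*) phosphorylate the substrate proteins IRS1, IRS2 and IRS4, which carry the signal to PI3 kinase and AKT and to the RAS and ERK kinases. *Insrr* encodes the insulin receptor-related receptor, which binds neither insulin nor the IGFs and responds to alkaline fluid outside the cell, and it is known from kidney, stomach and islet β-cells. IGF2R is not a kinase and takes IGF2 up for degradation. In β-cells, signalling through IRS2 is known for its part in keeping cell mass.

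Because these receptors are related in sequence, reads of one could in principle be counted for another. The longest run that any pair of *Insrr*, *Insr* and *Igf1r* shared over the whole coding sequence was 29 bases, shorter than a 50-base read. No 50-base word of a transcript of any of the 9 genes occurred in a transcript of another of the 9. *Insrr*, *Igf1r*, *Igf2r* and *Igf1* shared no such word with any other annotated gene either. The values of *Igf2* and *Irs1* are less certain, since 62.1% of the *Igf2* words also occurred in Gm49394, a gene on the same strand, and other genes, and 30.5% of the *Irs1* words occurred in Gm9747 on the opposite strand. Neither of these overlapping genes has a row in the count table.

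*Insrr* (chr3:87796951-87816101, plus strand) stood at 185, 436, 436 and 194 CPM in controls 1 to 4 and at 114, 118, 258 and 105 CPM in mutants 1 to 4. Mutant 3 lay above controls 1 and 4, so the groups overlapped over the 8 libraries. Within the smaller libraries both controls were above all 3 mutants, and within the larger libraries both controls were above the mutant. The mutant mean was 0.591 times the control mean in the smaller libraries and 0.592 times in the larger ones. These ratios were close although the level itself was higher in the larger libraries, by 1.20 on the log2 scale (SE 0.072, in a fit with genotype). *Insrr* was chosen from a fit with a term for the library set, which favours genes with like differences in both sets. The closeness of the ratios thus restates the choice in part.

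The fitted log2 fold change of *Insrr*, mutant over control, was -1.07 (SE 0.40) in edgeR with genotype alone. With a term for the library set it was -0.76 (SE 0.071), in the smaller libraries alone -0.76 (SE 0.068), and in the larger ones -0.73 with no error. The difference between the sets, from a fit that lets the genotype difference vary by set, was 0.0034 on the log2 scale (SE 0.13). A small value here is likewise favoured by the way *Insrr* was chosen. *Insrr* was chosen from the contrast with the library term, in which 0.00656% of all genes tested were called lower and 0.0328% higher at an adjusted p under 0.05, and nothing is read from its own place there.

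**Figure D1:**
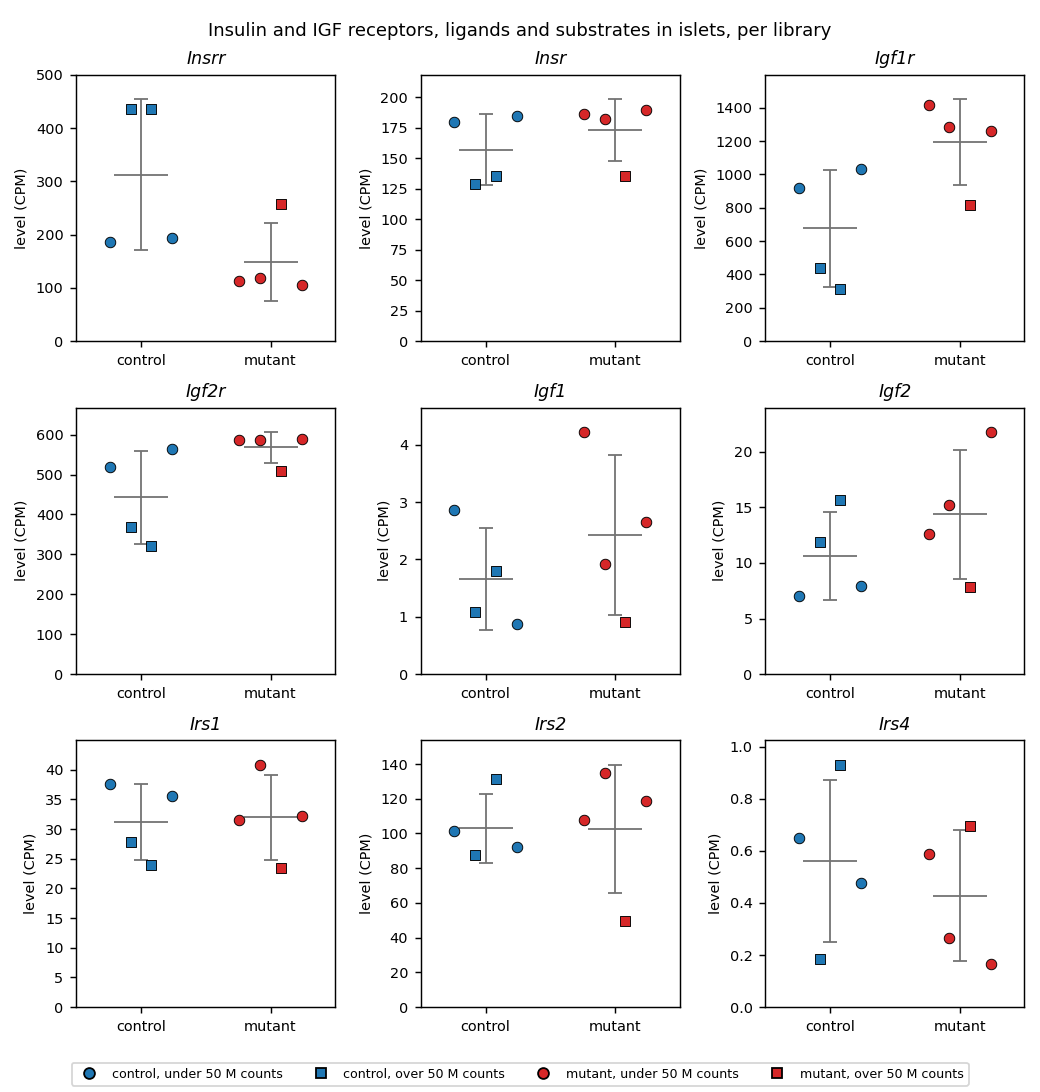
Level (CPM, linear axes from 0) of each of the 9 genes in each library, controls in blue and mutants in red, squares for libraries of over 50 M counts and circles for the others. Grey bars are the mean and SD of 4 libraries per genotype. *Insrr* is lower in mutants within circles and within squares, with mutant 3 (258 CPM) above the control circles (185 and 194 CPM), while *Igf1r* is higher in mutants within each.

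Other β-cell genes were read beside *Insrr*, since the receptor is known from these cells. Of 11 β-cell markers tested, all 11 had a lower log2 fold change over the 8 libraries and 5 had an unadjusted p under 0.05, against 7.19% of all genes lower at that level. The median log2 fold change of the list was -1.34 over the 8 libraries and -0.54 with the library term. With that term 4 of the 11 were lower at an unadjusted p under 0.05, against 6.54% of all genes. In the 5 smaller libraries 4 were lower and 1 was higher at that level, against 10.7% and 12.6% of all genes. There the median of the list was 0.02. *Slc30a8*, the zinc transporter of insulin granules, stood at 209 and 188 CPM in the smaller controls and 97.1, 139 and 98.3 CPM in the smaller mutants. *Ins1* stood at 7763 and 7050.3 CPM in those controls and 6828, 9715 and 9588 CPM in those mutants, which overlap. The part of β-cell RNA as a whole in the *Insrr* values was not tested.

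The insulin receptor *Insr* (chr8:3150922-3279617, minus strand) did not pass the test, with 179.5, 129, 136 and 185 CPM in controls and 186, 183, 136 and 189 CPM in mutants. The groups overlapped, and the 3 libraries near 130 CPM were the larger ones of both genotypes. Mutants differed from controls by 0.14 on the log2 scale (SE 0.16, adjusted p = 0.686 in edgeR), and 0.03 (SE 0.063) with the library term. Within the smaller libraries the mutant mean was 1.02 times the control mean and within the larger ones 1.03 times. *Insr* was lower in the larger libraries by 0.46 on the log2 scale (SE 0.065), opposite to *Insrr*.

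*Igf1r* (chr7:67952257-68233667, plus strand), the receptor of IGF1, had the highest mean level of the 9 genes per kilobase. It stood at 916, 442, 312 and 1033 CPM in controls and 1415, 1283, 818 and 1262 CPM in mutants. Mutant 3 was below controls 1 and 4, and within each set of libraries every mutant was above every control. The fold change on the log2 scale reached 0.82 (SE 0.38; adjusted p = 0.367 in edgeR and 0.242 in DESeq2). With the library term it was 0.68 (SE 0.18, adjusted p = 0.182 in edgeR), and in the smaller libraries 0.43 (SE 0.095, adjusted p = 0.101 in edgeR). The mutant mean was 1.35 times the control mean in the smaller libraries and 2.17 times in the larger ones, a difference that did not pass the test either (0.68 on the log2 scale, SE 0.26, adjusted p = 0.136 in edgeR, interaction of genotype and library set).

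*Igf2r* (chr17:12682406-12769706, minus strand), which clears IGF2, followed *Igf1r* across libraries. Its levels were 518, 368, 322 and 563 CPM in controls and 588, 587, 509 and 588 CPM in mutants. Within each set of libraries the mutants were again above the controls, by 1.09 times in the smaller and 1.48 times in the larger. On the log2 scale mutants exceeded controls by 0.36 (SE 0.19; adjusted p = 0.404 in edgeR). *Airn*, the noncoding RNA that overlaps the *Igf2r* gene on the other strand, had a log2 fold change of 0.05 (SE 0.23, adjusted p = 0.932 in edgeR).

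**Figure D2:**
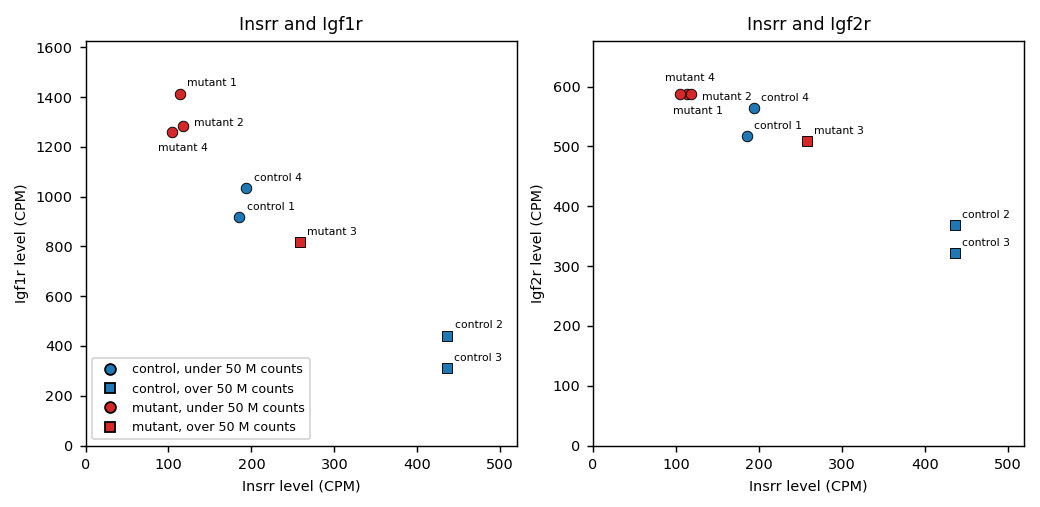
Level of *Insrr* (CPM, horizontal) against *Igf1r* (left) and *Igf2r* (right) in each of 8 libraries, coloured by genotype, with squares for libraries of over 50 M counts. Mutants lie to the left of and above controls of the same symbol shape in both panels, while mutant 3 (258 CPM of *Insrr*) lies to the right of controls 1 and 4.

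None of the 9 genes had groups that did not overlap over all 8 libraries, against 4.4% of genes higher and 3.8% lower. Of the 9, 2 were higher (*Igf1r* and *Igf2r*) and 1 was lower (*Insrr*) without overlap in both library sets, against 9.34% and 8.38% of all genes. In the smaller libraries alone 4 were higher without overlap, *Igf1r*, *Igf2r*, *Igf2* and *Irs2*, and 1 was lower, *Insrr*, against 21.7% and 21.5% of all genes. *Insrr* was chosen as lower with the library term, so its place in both of these counts restates that choice. No gene of the whole table was called by edgeR with genotype alone (0% in either direction; 1036 genes, 6.8%, were higher and 1096 lower at an unadjusted p under 0.05), and DESeq2 called none of the 9, against 185 genes higher (1.22%) and 127 lower (0.835%) over the table. Of the 8 genes other than *Insrr*, 0 had an unadjusted p under 0.05 in edgeR. In DESeq2 1 did, *Igf1r*, which was higher, against 1221 higher and 1329 lower of the 15233 genes. With the library term 2 of the 8 did, *Igf1r* and *Igf2r*, both higher, against 8.65% of all genes higher and 6.54% lower. In the smaller libraries 3 of the 8 did, *Igf1r*, *Igf2* and *Irs2*, all higher, against 12.6% of all genes higher and 10.7% lower at that level. None of the 8 had an adjusted p under 0.05 there, where 0.077% of all genes were called higher and 0.0577% lower.

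**Figure D3:**
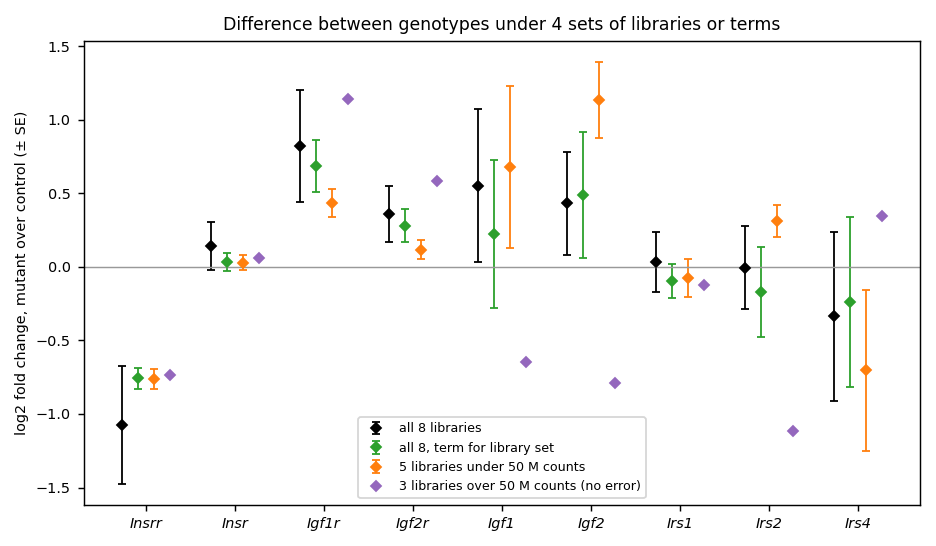
Log2 fold change, mutant over control (vertical axis), of each gene from all 8 libraries, all 8 with a term for the library set, the 5 smaller libraries and the 3 larger ones. Bars are standard errors, with none for the 3 larger libraries. *Insrr* stays between -1.07 and -0.73, while *Igf1*, *Igf2* and *Irs2* lie above 0 in the smaller libraries and below 0 in the larger ones.

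Among the receptors the levels also moved together across libraries, as a description over 8 libraries that share genotype and depth. The log2 levels of *Igf1r* and *Igf2r* had a Pearson r of 0.99, and those of *Insrr* had r of -0.95 with *Igf1r*, -0.92 with *Igf2r* and -0.91 with *Insr*. The ratio of *Insr* to *Igf1r* within a library was 0.196, 0.292, 0.434 and 0.179 in controls and 0.132, 0.142, 0.166 and 0.150 in mutants. Every mutant lay below every control, and the difference of the mean log2 ratio was -0.81 with an exact two-sided permutation p of 0.0286, the smallest that 4 against 4 libraries allow (0.0571 adjusted over the 2 ratios tested). In the 5 smaller libraries the difference was -0.41. Controls 2 and 3 carried the highest ratios.

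The ligands, whose main sources are known to be other tissues, were at low levels. *Igf1* (chromosome 10, plus strand) stood at 2.85, 1.08, 1.81 and 0.882 CPM in controls and 4.23, 1.92, 0.901 and 2.66 CPM in mutants, which overlap. For *Igf1* the fitted difference was 0.55 on the log2 scale (SE 0.52, adjusted p = 0.618 in edgeR). *Igf2* (chr7:142650768-142666816, minus strand), an imprinted gene known for growth before birth, stood at 7.06, 11.9, 15.7 and 7.94 CPM in controls and 12.6, 15.2, 7.81 and 21.8 CPM in mutants. In the smaller libraries both controls were below the 3 mutants, and in the larger libraries both controls were above the mutant, by means of 13.8 against 7.81 CPM.

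Over all libraries *Igf2* had a log2 fold change of 0.43 (SE 0.35, adjusted p = 0.563 in edgeR), with 1.13 (SE 0.26, adjusted p = 0.105 in edgeR) in the smaller libraries and -0.79 in the larger. The difference between the sets was -1.96 (SE 0.45, adjusted p = 0.0413 in edgeR). Such differences between sets passed the test for 1744 genes, 11.4% of those tested, and the larger set held 1 mutant, which was also the only female mutant. *Ins2* lies next to *Igf2* on the chromosome, and *Th*, the tyrosine hydroxylase gene beyond it, stood at 14.3, 54.9, 35.1 and 9.06 CPM in controls and 5.20, 13.9, 13.1 and 7.66 CPM in mutants.

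The substrates showed no difference between genotypes that passed the test. *Irs2* (chromosome 8, minus strand), the main substrate of β-cells, stood at 101, 87.4, 132 and 92.1 CPM in controls and 108, 135, 49.6 and 119 CPM in mutants, with the lowest value in mutant 3. Over all libraries the fitted log2 difference of *Irs2* was -0.01 (SE 0.28, adjusted p = 0.993 in edgeR), with 0.31 (SE 0.11, adjusted p = 0.171 in edgeR) in the smaller libraries and -1.12 in the larger. The difference between the sets was -1.46 (SE 0.31, adjusted p = 0.0364 in edgeR), so *Irs2* and *Igf2* were the 2 genes of the 9 with unequal differences by this test, again against 11.4% of all genes. *Irs1* (chromosome 1, minus strand) stood at 37.5, 27.8, 23.9 and 35.6 CPM in controls and 31.5, 40.8, 23.4 and 32.2 CPM in mutants. The log2 fold change of *Irs1* was 0.04 (SE 0.20, adjusted p = 0.949 in edgeR), with the lowest values in the larger libraries of both genotypes.

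*Irs4* (chromosome X, minus strand) was at the edge of detection, with 25, 10, 49 and 20 reads in controls and 26, 11, 47 and 7 reads in mutants. That is 0.186 to 0.931 CPM in controls and 0.166 to 0.694 CPM in mutants, and the fitted log2 difference was -0.34 (SE 0.57, adjusted p = 0.795 in edgeR). The ratio of *Irs1* to *Irs2* was 0.371, 0.318, 0.181 and 0.387 in controls and 0.293, 0.303, 0.472 and 0.271 in mutants. These overlap, with a mean log2 difference of 0.12 and an exact two-sided permutation p of 0.771 (0.771 adjusted over 2 ratios).

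The 3 substrate genes have a sequence in common upstream of their starts, which no value above used. Each of their promoters (250 bases before to 50 after the start, RefSeq, GRCm38.p6) holds the E-box CACGTG and, next to it, TGTTTTG, the letters of the insulin response element that FOXO factors are known to bind. The lines give 60 bases of each on the minus strand of the chromosome, 5′ to 3′, with both motifs in capitals, from chr1:82291517-82291576 for *Irs1*, chr8:11008936-11008995 for *Irs2* and chrX:141725334-141725393 for *Irs4*.
Irs1: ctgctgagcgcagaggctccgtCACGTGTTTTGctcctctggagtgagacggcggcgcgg
Irs2: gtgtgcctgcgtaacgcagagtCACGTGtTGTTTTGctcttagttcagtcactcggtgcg
Irs4: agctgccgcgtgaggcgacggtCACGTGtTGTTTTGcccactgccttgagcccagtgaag

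In *Irs1* the motifs overlap each other. Searched on both strands, CACGTG occurred in 7.15% of 32851 promoters and TGTTTTG in 6.28%. The pair was counted where TGTTTTG started at most 10 bases after the start of CACGTG on the same strand, and occurred in 0.0274%. The reverse order was not counted. The pair was found in promoters of 8 genes of 27025, among them 3 of the 7 genes of this family with a promoter in the table. The letters were chosen after the sequences had been seen, so the shares are a description of these windows. The other genes with the pair were *Klf11*, *Pcbp1*, *Pyroxd1*, 1700019P21Rik and Gm38926, and of these *Klf11* had a log2 fold change of -0.29 (SE 0.093, adjusted p = 0.333 in edgeR), *Pcbp1* of -0.00 and *Pyroxd1* of -0.14. With *Irs1*, *Irs2* and *Irs4*, none of the 6 of these genes that were tested was called by edgeR.

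Compared per kilobase of the gene length given in the count table, the level fell in the order *Igf1r*, *Igf2r*, *Insrr*, *Irs2*, *Insr*, *Irs1*, *Igf2*, *Igf1* and *Irs4*. The mean over 8 libraries was 72.9 ± 31.1 (SD) CPM per kilobase for *Igf1r*, 56.9 ± 11.8 for *Igf2r*, 40.8 ± 24.2 for *Insrr*, 25.6 ± 6.86 for *Irs2* and 17.1 ± 2.76 for *Insr*. It was 3.45 ± 0.689 CPM per kilobase for *Irs1*, 2.76 ± 1.11 for *Igf2*, 0.248 ± 0.141 for *Igf1* and 0.0791 ± 0.0436 for *Irs4*. *Insr* was above *Irs1* and *Igf2* above *Igf1* in 8 of 8 libraries and by more than their spread. Every other pair of neighbours in the order had overlapping ranges of the mean ± SD, and *Insrr* was above *Irs2* in 5 of 8 libraries. In controls 2 and 3, *Insrr* had the highest level of the 9 genes, at 77.1 and 76.99 CPM per kilobase against 34.4 and 24.3 for *Igf1r*, whereas in mutants 1, 2 and 4 it stood at 18.5 to 20.8 against 98.3 to 110 for *Igf1r*.

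**Figure D4:**
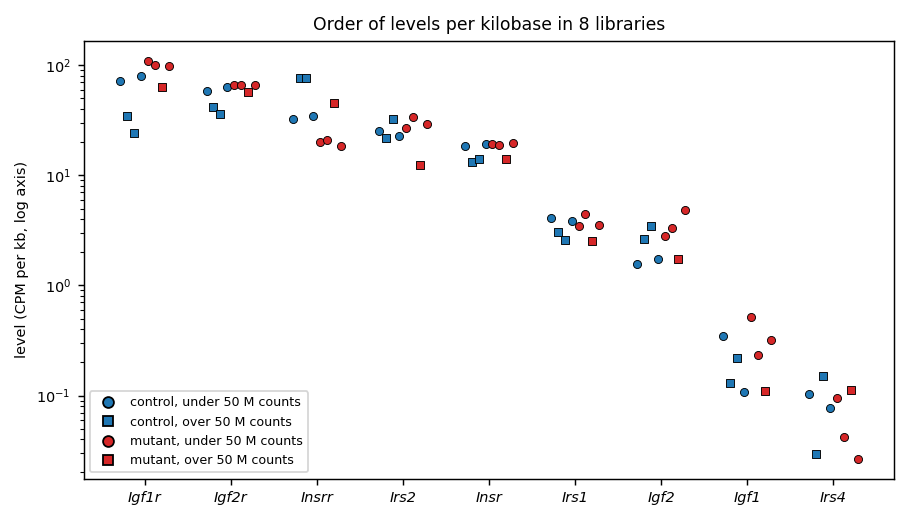
Level per kilobase (CPM per kb, log axis) of the 9 genes in each library, ordered by their mean over 8 libraries, with colour for genotype and squares for libraries of over 50 M counts. The 5 genes from *Igf1r* to *Insr* overlap in a band of 12.4 to 110 CPM per kb, *Irs1* and *Igf2* form a lower band, and *Igf1* and *Irs4* lie at 0.513 CPM per kb or below.

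Genes of the whole table were also ranked by how closely their log2 level followed that of *Insrr* over the 8 libraries, as a description. The 6 most alike were *Prps1* (Pearson r of 0.996), which makes phosphoribosyl pyrophosphate, *Stk16* (0.995), *Spata24* (0.991), *Rimkla* (0.990), *Trpm5* (0.988), a cation channel of β-cells, and *Ddx41* (0.988). *Trpm5* stood at 34.95, 108, 101 and 23.5 CPM in controls and 13.9, 15.4, 42.8 and 12.6 CPM in mutants, the same order of sets as *Insrr*. For *Igf1r* the most alike were *Hoxd8* (0.996), *Rgs19* (0.993) and *Adamts5* (0.993), and for *Insr* they were *Rpl13* (0.996), *Zfp53* (0.996) and *Scarna13* (0.995). *Scarna13*, a small noncoding RNA of Cajal bodies, stood at 5.76 to 12.3 CPM in the smaller libraries and 0.0557 to 0.133 CPM in the larger ones, so the sets also differed in a small RNA.

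Downstream of the receptors, 113 genes in 6 lists of the pathway were read, and 110 were tested. edgeR called none of them; 7 were higher and 12 lower at an unadjusted p under 0.05, against 6.8% and 7.19% of all genes. The median log2 fold change was -0.06, against 0.0015 over all genes. DESeq2 called 2 lower, *Pappa2* among them, against 0.835% of all genes. In the smaller libraries 27 of 112 pathway genes tested were higher and 8 lower at an unadjusted p under 0.05, against 12.6% and 10.7% of all genes. The median there was 0.04, and edgeR called 1 higher, against 0.077% of all genes.

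In the PI3 kinase and AKT arm 0 of 25 genes had an unadjusted p under 0.05, 11 were higher and 14 lower, and the median was -0.01. The smallest p values were those of *Eif4ebp1*, a repressor of translation, with a log2 fold change of 0.31 (SE 0.16), *Rheb*, the activator of mTOR, with -0.42 (SE 0.22), *Tsc1* with -0.22 (SE 0.12) and *Deptor*, a subunit of mTOR complexes, with -0.37 (SE 0.20). In the smaller libraries alone *Rheb* was 0.04 and *Deptor* -0.03, with *Eif4ebp1* at 0.43 and *Tsc1* at -0.26. Controls 2 and 3 held the highest levels of *Rheb*, 133 and 165 CPM, and of *Deptor*, 442 and 341 CPM.

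In the RAS and ERK arm 2 of 19 genes were higher and 2 lower at that level, against 6.8% and 7.19% of all genes. *Shc1*, the adaptor from receptor to RAS, was at 101 to 216 CPM in controls and at 243 to 323 CPM in mutants, without overlap, with a log2 fold change of 0.76 (SE 0.24, adjusted p = 0.333 in edgeR). *Frs2* stood at 45.3 to 127 CPM in controls and 38.3 to 44.7 CPM in mutants, where controls 2 and 3, at 117 and 127 CPM, made most of a log2 fold change of -0.98. *Map2k1*, the kinase of ERK, had 0.59 (SE 0.24).

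Among 20 inhibitors of the pathway, 2 were higher and 1 lower at an unadjusted p under 0.05, against 6.8% and 7.19% of all genes. *Inppl1*, the lipid phosphatase SHIP2, stood at 85.6 to 93.8 CPM in controls and 100.4 to 106 CPM in mutants, a log2 fold change of 0.20 (SE 0.081). *Ptprf*, a receptor tyrosine phosphatase that acts on the insulin receptor, stood at 583 to 849 CPM in controls and 910 to 972 CPM in mutants. Both were without overlap between groups, with adjusted p of 0.339 and 0.349 in edgeR. The log2 fold change of *Inppl1* was 0.15 in the smaller libraries and 0.28 in the larger. That of *Ptprf* was 0.37 over all libraries, 0.14 in the smaller and 0.67 in the larger. *Socs2* had a log2 fold change of -0.97 (SE 0.33) and *Dok1* of 0.37 (SE 0.17). In the smaller libraries alone these were -0.24 and 0.31, with *Socs2* at 28.2 and 23.0 CPM in controls 2 and 3.

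Of 16 FOXO factors and targets, 15 had a lower log2 fold change, with a median of -0.31. Of these, 5 were lower at an unadjusted p under 0.05, against 7.19% of all genes. In the smaller libraries the median was -0.03. There none was lower and 3 were higher at that level, against 10.7% and 12.6% of all genes. At an adjusted p under 0.05 edgeR called 1 of them higher there, *Trib1*, against 0.077% of all genes. *Fbxo32*, a ubiquitin ligase, was high only in the larger controls, at 57.9 and 54.9 CPM. It stood at 29.9 and 29.8 CPM in the smaller controls and at 25.3 to 29.3 CPM in mutants, the larger mutant library among them. *Txnip*, a redox gene induced by glucose, stood at 154 and 131 CPM in the smaller controls, at 276 and 376 CPM in the larger and at 74.7 to 162 CPM in mutants. On the log2 scale *Sesn1* differed by -0.76 (SE 0.29) and *Pdk4* by -0.49 (SE 0.21).

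The CREB-responsive list holds mainly genes that cyclic AMP induces in β-cells along with *Irs2*, and also the genes of CREB itself and of a coactivator. It had 3 of 14 lower at an unadjusted p under 0.05, against 7.19% of all genes, and a median of -0.39. In the smaller libraries the median was 0.35. There 8 genes were higher and 1 was lower at that level, against 12.6% and 10.7% of all genes. *Nr4a1*, an early response gene, stood at 76.8 and 63.8 CPM in the smaller controls, at 193 and 509 CPM in the larger, and at 82.3, 66.8, 32.2 and 78.0 CPM in mutants. *Atf3*, *Per1* and *Rgs2* likewise had their highest values in controls 2 and 3 and their lowest mutant value in mutant 3. *Irs2* was lowest in mutant 3 too, but control 2, at 87.4 CPM, was the lowest of its controls.

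For genes that set the amount of free ligand, 12 of 16 tested had a higher log2 fold change. At an unadjusted p under 0.05, 3 were higher and 1 lower, against 6.8% and 7.19% of all genes. *Pappa2*, the protease that cuts IGF binding proteins and frees IGF, was called lower by DESeq2 and not by edgeR, with 417, 865, 1431 and 310.4 CPM in controls and 179, 286, 162 and 192 CPM in mutants. Every mutant was below every control. On the log2 scale *Pappa2* differed by -1.88 (SE 0.46; adjusted p = 0.316 in edgeR and 0.00376 in DESeq2). *Stc2*, a stanniocalcin that inhibits such proteases, was at 0.724 to 3.41 CPM in controls and 3.69 to 8.42 CPM in mutants, with a DESeq2 adjusted p of 0.0597 and an edgeR adjusted p of 0.333. *Furin*, which cleaves the proreceptors of insulin and IGF1, had 0.37 (SE 0.14), and *Igfbp3*, a carrier of IGF, 0.86 (SE 0.37).

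Markers of other cells were read beside these values. The sum of 12 fibroblast, stellate cell and pericyte markers was 343 to 507 CPM in controls and 783 to 919 CPM in mutants, with *Col1a1* at 26.6 CPM or more in every library. Of the 12, 9 were higher at an unadjusted p under 0.05, against 6.8% of all genes. DESeq2 called 6 of them higher, against 1.22% of all genes. The sum of ductal markers was 330 to 1657 CPM in controls and 1127 to 3022 CPM in mutants, that of endothelial markers 772 to 819 and 714 to 892 CPM, that of macrophage and leukocyte markers 65.7 to 111 and 63.8 to 121 CPM, and that of Schwann cell markers 33.2 to 53.9 and 53.7 to 81.6 CPM. The sum of α-cell markers was 19753 to 93699 CPM in controls and 10895 to 20618 CPM in mutants, and that of δ-cell and PP-cell markers 5913 to 10023 and 2869 to 9797 CPM. *Igf1r*, *Igf1*, *Shc1* and *Stc2* are known to be expressed in fibroblasts too, and the part of these cells in their values was not tested.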

How the data were processed

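Islet RNA was sequenced with single 50-base reads after ribosomal RNA depletion. The authors trimmed the reads, aligned them to the mouse genome (GRCm38) with STAR and deposited raw counts per gene made with featureCounts, which at its default settings ignores strand. The submitters' processing notes give no version of these tools or of edgeR. Deposited by the authors as well were the gene lengths in kilobases used for levels per kilobase, and a table of their own fold changes, p-values and 8 columns of CPM per library under other library numbers, which was not used.

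Members and gene lists were chosen with earlier results of these data known. Counts were tested with edgeR 4.0.16 under R 4.3.3, by its quasi-likelihood F-test (TMM factors, low count filter by genotype, genotype as the only term, Benjamini-Hochberg adjustment over 15233 genes, threshold 0.05). The SE was the log2 fold change over the square root of F. DESeq2 1.42.0, a term for the library set (limit 50 M counts), the replicate block and left-out libraries were alternatives, and the interaction of genotype and library set was added after seeing the data. The quasi-likelihood and likelihood ratio tests of edgeR and the DESeq2 test, with genotype alone, were tried on simulated data with 200 changed genes. The simulation held no difference between library sets. Ratios were compared with exact permutation tests. Correlations used log2 CPM with a prior count of 2.

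Named were all 9 members, the 4 genes of each pathway list with the smallest p, the genes most like a member in level, neighbours and markers of cell types. *Klf11*, *Pcbp1*, *Pyroxd1*, 1700019P21Rik, Gm38926 and *Trib1* were named after their values were seen. Some genes and sequences that this rule takes are not reported here. The smallest chi-square per gene between libraries was 26.6, so no library was a copy of another. The batch that the authors corrected is not named in the sources used here. Promoters were from RefSeq, and transcripts from GENCODE M21. Libraries held 35.1 to 67.6 M counts.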

Additional observations from a re-analysis of the deposited data

Results flagged for a closer look

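Of 18 groups of 4 libraries tested, 3 held a library far from the other 3, and in each it was mutant 3, the only larger mutant library. Chance gives about 1 in 20 groups where groups are independent, which these are not. The levels of *Insrr* had a Pearson r of -0.91 with *Insr* and -0.92 with *Igf2r*, so the 3 do not count separately. For *Insrr* mutant 3 stood at 258 CPM with the nearest mutant at 118 CPM. For *Insr* it stood at 136 CPM with the nearest at 183 CPM. For *Igf2r* it stood at 509 CPM with the nearest at 587 CPM.

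For 2 genes the difference between genotypes was unequal in the larger and the smaller libraries, by the interaction term of edgeR over all genes. The log2 fold change in the larger libraries minus that in the smaller was -1.96 for *Igf2* (adjusted p = 0.0413) and -1.46 for *Irs2* (adjusted p = 0.0364), in a comparison in which 11.4% of all genes passed the test and 1 mutant stood for the larger set.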

How the results depend on the processing

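Against 0 genes called with genotype alone in edgeR's quasi-likelihood test, 312 were called by DESeq2, 109 by the likelihood ratio test of edgeR, 6 with the library term and 21 in the 5 smaller libraries. Of the 8 genes other than *Insrr*, 0 passed the threshold with the library term and 0 in the smaller libraries. *Insrr* was chosen for this difference and is left out of this count. Of the pathway genes 2 were called by DESeq2, 1 by the likelihood ratio test and 1 in the smaller libraries. Without controls 2 and 3, which sets mutant 3 beside smaller controls only, the log2 fold change was -0.35 for *Insrr*, -0.072 for *Insr*, -0.20 for *Irs1* and 0.081 for *Irs2*. Leaving out 1 library at a time gave -1.48 to -0.87 for *Insrr*. In the 3 larger libraries it was -0.65 for *Igf1*, -0.79 for *Igf2*, -0.12 for *Irs1*, -1.12 for *Irs2* and 0.35 for *Irs4*. *Irs1*, at 0.04 over all libraries, was -0.10 with the library term, -0.14 with the replicate block and the library term, -0.075 in the smaller libraries and -0.11 to 0.16 with 1 library left out. *Irs2* was 0.16 with total counts only, which moved the median of all genes to 0.15, 0.31 in the smaller libraries and -0.17 to 0.22 with 1 library left out, and *Irs4* was -0.71 to 0.11 with 1 library left out. The log2 difference of the *Insr* to *Igf1r* ratio was -0.99 to -0.56 with 1 library left out, -0.41 in the smaller libraries and -0.35 without controls 2 and 3; the exact permutation p was then 0.0286 to 0.0857, 0.1 and 0.0667, of which the last 2 are the smallest possible. That of *Irs1* to *Irs2* was -0.39 in the smaller libraries, -0.21 without controls 2 and 3 and -0.13 to 0.23 with 1 library left out. Per kilobase of the longest transcript *Insr* was 4 and *Irs2* 5 in the order of levels, and in the smaller libraries *Insrr* was 4 and *Irs2* 3. The cause of these changes was not tested beyond the values given. Same-numbered libraries deviated from their group means with correlations of 0.42, -0.01, 0.46 and 0.25. Controls 1, 3 and 4 correlated best with the mutant of the same number, and control 2 with mutant 4. Whether equal numbers are pairs was not settled by this, and the main fit did not take them as pairs. With the replicate block *Insrr* was -1.06 (SE 0.22), and 0 genes were called (at an unadjusted p under 0.05, 1600 were higher and 1182 lower).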
